A study of Mus musculus with 12 samples.

Results

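The genes that copy DNA and open S phase were followed in alveolar macrophages, which live in the air spaces of the lung and engulf inhaled material, after repeated ozone. The members were 50 genes given by symbol, and all 50 were found among the 55291 rows of the deposited expression table. They were ordered by step into licensing (5 genes), the replicative helicase (13), polymerases and primase (7), the sliding clamp and lagging strand (9), nucleotide supply (5), regulators of the G1/S transition (6) and the copying of chromatin (5). All 50 carried reads in all 12 mice and passed the filter on low values.

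RNA came from female C57BL6/NJ mice aged 8 to 11 weeks. The ozone group (6 mice) breathed ozone at 0.8 ppm for 4 h on each of 4 consecutive days, and the other group (6 mice) breathed filtered air on the same schedule. Lungs were taken 3 days later, and alveolar macrophages were isolated by flow cytometry in 2 batches, each with 3 mice of either group. The labels do not give the markers of the gate, and each library came from a separate mouse.

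Before S phase, the origin recognition complex, Cdc6 and Cdt1 load the ring of Mcm2 to Mcm7 onto origins, a step called licensing, and geminin blocks Cdt1 afterwards. In S phase, Cdc45 and the GINS complex turn the ring into an active helicase, primase and the polymerases copy both strands, and the clamp loader places PCNA on the DNA. E2F transcription factors switch most of these genes on at the G1/S boundary, together with cyclin E. Alveolar macrophages are long-lived cells that renew themselves by local division.

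Values are on a log2 scale after a variance-stabilizing step, and each is relative to the filtered-air mean, which is 0 in every gene. The table therefore keeps differences but not the level of a gene, and no level is compared between genes here. Differences of genes with few reads are compressed on this scale, so a smaller difference in one gene than in another is not a smaller fold change. The total of reads per library was not kept. Near the bottom of the range, the step from no read to a single read was 0.099 to 0.11 on the log2 scale in filtered-air libraries and 0.097 to 0.11 in ozone libraries; a read is worth less than this in genes with more reads. RNA integrity numbers lay between 8.9 and 9.7 in filtered air and between 9.2 and 9.7 after ozone. All 12 listed alveolar macrophage markers, such as Marco and Siglecf, carried reads in all 12 mice. Of these markers Krt79 and Ear1 fell, by 0.35 and 0.28, and Chil3 and Car4 rose, by 0.25 and 0.32. Marco had the largest difference of the 12, 0.58, and did not pass (limma's adjusted p = 0.108). Of 76 listed markers of other cells, 68 also carried reads in all 12 mice, so the presence of reads does not identify the cells.

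Promoters of the members are shown first, because E2F factors act through them. The RefSeq promoter table of build GRCm38.p6, of which mm10 is the same assembly, holds 250 bases before and 50 after a transcription start, and 41 of the 50 members were listed. Words of the E2F motif (TTTCCCGC, TTTCGCGC, TTTGCCGC and TTTGGCGC, on either strand) occurred in 17 of these 41, or 41.5%, against 2.60% of the 27025 genes with a listed promoter and 4.29% of the 12675 that were also tested here. With only the bases before the start the share was 26.8% of members, or 11 genes, and 2.16% of all genes. The CCAAT box occurred in 25 of 41 (61.0%, against 41.1% of all genes and 42% of those tested). The word TTTGAA of the cell cycle homology region occurred in 8 of 41, or 19.5%, which lies below the 20.2% of all genes and above the 15.3% of those tested. With only the bases before the start these backgrounds were 18.3% and 13.8%, both below the members' share. A match of letters is a description and not a binding site, and several E2F words overlap each other in the same promoter.

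The following 30-base windows hold the E2F word nearest to the upstream end of the promoter in each of the 11 members with a word before the start. They are shown 5′ to 3′ on the strand of the gene, with the words in capitals. For Dnmt1 and Uhrf1 the word belongs to a later one of several listed starts.
Cdc6 (chr11:98908002-98908031, plus strand): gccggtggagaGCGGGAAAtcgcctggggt
Orc1 (chr4:108579416-108579445, plus strand): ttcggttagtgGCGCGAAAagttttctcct
Mcm5 (chr8:75109347-75109376, plus strand): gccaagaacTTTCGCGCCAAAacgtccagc
Mcm7 (chr5:138172030-138172059, minus strand): aatttcgaaccGCGGGAAAcagggtgtcca
Mcm6 (chr1:128359795-128359824, minus strand): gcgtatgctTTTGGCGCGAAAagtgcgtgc
Gins3 (chr8:95633507-95633536, plus strand): gcgagtgcggcGCGGGAAAgcgagtttgaa
Pola1 (chrX:93632275-93632304, minus strand): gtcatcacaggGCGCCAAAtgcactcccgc
Rfc3 (chr5:151651195-151651224, minus strand): gcacgcTTTCGCGCtcGCGGGAAAactcta
E2f7 (chr10:110745230-110745259, plus strand): cccgcgtccccGCGGGAAAcgctcccgcgt
Dnmt1 (chr9:20952824-20952853, minus strand): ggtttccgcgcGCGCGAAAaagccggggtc
Uhrf1 (chr17:56304117-56304146, plus strand): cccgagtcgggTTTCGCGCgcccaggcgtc

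The windows of Mcm5, Mcm6 and Rfc3 each hold 2 words on opposite strands, and in Mcm5 and Mcm6 they overlap. By step, an E2F word was found in 3 of 4 listed licensing genes, 5 of 9 helicase genes, 3 of 5 polymerase genes, 2 of 8 clamp and lagging-strand genes, 0 of 5 nucleotide genes, 2 of 5 regulators and 2 of 5 chromatin genes. The other 6 genes with a word, Cdt1, Mcm3, Pold1, Pole2, Lig1 and E2f2, had it only in the bases after the start.

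**Figure D1:**
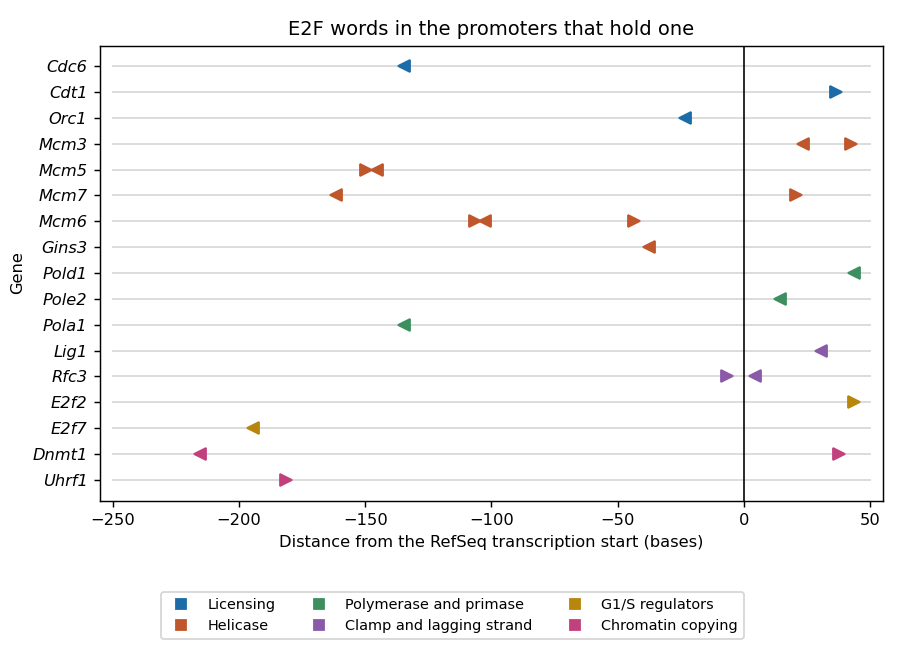
Positions of E2F words relative to the RefSeq transcription start (x axis, bases) in the 17 member promoters that hold one (y axis), with all listed starts of a gene on 1 line. Arrowheads give the strand and colours the step; 11 genes have a word before the start and 6 only after it.

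Each step's gene with the lowest p-value is shown next. The 180 bases before the most upstream listed start were as follows, with matches to the E2F words, the CCAAT box and TTTGAA in capitals. For licensing that gene was geminin (Gmnn), which is named only.
Mcm2 (chr6:88898781-88898960, minus strand): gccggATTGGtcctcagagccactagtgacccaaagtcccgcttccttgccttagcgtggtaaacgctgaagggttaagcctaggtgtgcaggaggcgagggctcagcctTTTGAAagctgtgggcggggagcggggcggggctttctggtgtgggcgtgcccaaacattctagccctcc
Prim1 (chr10:128015035-128015214, plus strand): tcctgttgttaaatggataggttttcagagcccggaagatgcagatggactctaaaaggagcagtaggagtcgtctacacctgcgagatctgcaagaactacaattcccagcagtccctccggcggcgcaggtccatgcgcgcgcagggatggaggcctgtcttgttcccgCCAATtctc
Lig1 (chr7:13276995-13277174, plus strand): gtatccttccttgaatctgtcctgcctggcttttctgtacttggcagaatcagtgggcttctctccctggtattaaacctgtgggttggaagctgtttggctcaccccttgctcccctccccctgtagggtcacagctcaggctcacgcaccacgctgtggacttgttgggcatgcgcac
Rrm1 (chr7:102441515-102441694, plus strand): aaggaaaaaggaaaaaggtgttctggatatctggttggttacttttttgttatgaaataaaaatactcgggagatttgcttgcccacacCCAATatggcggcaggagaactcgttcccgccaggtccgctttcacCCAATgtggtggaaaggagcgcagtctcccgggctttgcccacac
Ccne1 (chr7:38107491-38107670, minus strand): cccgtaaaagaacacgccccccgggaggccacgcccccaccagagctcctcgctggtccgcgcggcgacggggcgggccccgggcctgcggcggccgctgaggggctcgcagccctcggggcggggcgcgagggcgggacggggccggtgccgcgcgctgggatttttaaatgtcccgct
Dnmt1 (chr9:20959889-20960068, minus strand): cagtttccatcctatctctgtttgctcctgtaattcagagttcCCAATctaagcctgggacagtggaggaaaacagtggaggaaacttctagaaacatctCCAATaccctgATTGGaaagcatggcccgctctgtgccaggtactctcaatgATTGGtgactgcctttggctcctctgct

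None of these 6 windows holds an E2F word, while 4 of them hold a CCAAT box on either strand, and that of Mcm2 also holds TTTGAA. In Dnmt1, 2 boxes lie on each strand. The windows of Lig1 and Ccne1 hold none of the letters searched. Lig1 and Dnmt1 do hold an E2F word at a later one of their 3 listed starts, outside the windows shown here.

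Ozone was then compared with filtered air in each member. All 50 members had a higher mean after ozone, which held for 48% of the 19633 genes tested. Of the members 36 rose at an adjusted p under 0.05 in limma, where 2.41% of all genes rose (473 genes), 1.84% fell (361 genes) and 4.25% passed in either direction. None of the 50 fell. The differences of the members ran from 0.062 to 0.50, with a median of 0.27, beside a median of -0.0033 over all genes tested. In 27 members every ozone mouse lay above every filtered-air mouse, which held for 1.96% of all genes (3.53% with either group above). The members were proposed with earlier results of these data known, and a cell cycle list that shares genes with them had been seen to rise, so these counts describe the genes and are no independent evidence of their direction. After quantile normalization, which gives all mice 1 distribution, 11 members were called, where 0.871% of all genes were, and all 50 means were still higher. Each library is RNA of a whole sort, so more cells in S phase and more RNA of these genes per cell cannot be told apart.

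**Figure D2:**
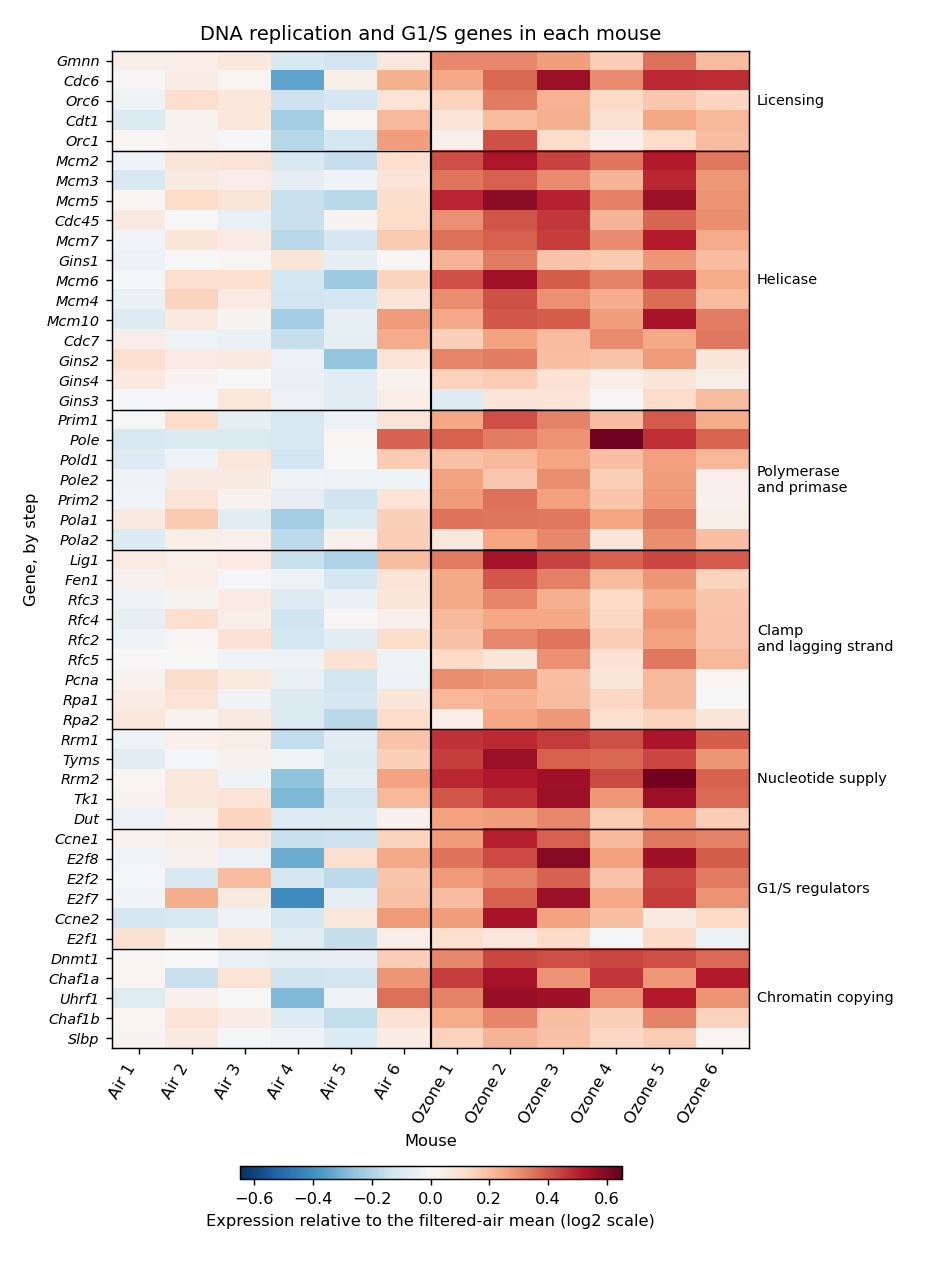
Expression of the 50 genes (y axis, by step, smallest p first) in the 12 mice (x axis), as difference from the filtered-air mean on the log2 scale (colour). Ozone mice are higher in nearly all rows, and the differences run from 0.062 (E2f1) to 0.50 (Rrm2).

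Licensing genes rose in part. Of 5 genes, 2 rose and 3 did not pass the test, and the median difference was 0.19. Geminin (Gmnn), the inhibitor that keeps Cdt1 from loading helicases again in S phase, lay at -0.12 in the lowest filtered-air mouse, 0.040 at the median and 0.076 in the highest, and at 0.16, 0.29 and 0.36 after ozone. The groups did not overlap, and Gmnn rose by 0.27 (SE 0.048, limma's adjusted p = 0.00620). Cdc6, the ATPase that recruits the helicase to the origin, rose by 0.41 (SE 0.081, limma's adjusted p = 0.0111). It lay between 0.25 and 0.56 after ozone and between -0.34 and 0.23 in filtered air, where mouse 4 was the lowest and mouse 6 the highest.

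The origin recognition subunits and Cdt1 did not pass. Orc1, the largest subunit of the complex, ranged from -0.18 over a median of 0.0025 to 0.27 in filtered air and from 0.031 over 0.12 to 0.41 after ozone. Only 1 ozone mouse lay above the highest filtered-air mouse, and the difference was 0.15 (SE 0.078, limma's adjusted p = 0.353). Orc6 differed by 0.19 with groups that did not overlap (limma's adjusted p = 0.0571, and 0.0480 without filtered-air mouse 2). Cdt1, the loading factor, differed by 0.18 (limma's adjusted p = 0.133, and 0.0333 without filtered-air mouse 6). With a single mouse removed, each passed only in that 1 of 12 repeats, with adjusted p-values up to 0.121 for Orc6 and 0.251 for Cdt1.

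In the helicase step, 10 of 13 genes rose, and the median difference was 0.34. All 6 subunits of the ring rose, and in each of them the groups did not overlap. Mcm2 lay at -0.15, 0.027 and 0.11 (lowest, median and highest) in filtered air and at 0.34, 0.43 and 0.53 after ozone. It rose by 0.43 (SE 0.054, limma's adjusted p = 0.000737), and the gap between the groups was wider than the whole range of the ozone mice. The other subunits rose by 0.46 (Mcm5), 0.40 (Mcm6), 0.38 (Mcm7), 0.34 (Mcm3) and 0.30 (Mcm4).

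The factors that activate the ring passed the test in part. Cdc45, which joins the ring in the active helicase, rose by 0.34 with separate groups, and Mcm10, which is needed for the helicase to start, rose by 0.36 with overlapping groups. Cdc7, the kinase that phosphorylates the ring, rose by 0.25 (limma's adjusted p = 0.0253), but 7 of 12 repeats with a single mouse removed left it above the threshold (adjusted p from 0.00182 to 0.0588). Of the 4 GINS subunits, Gins1 rose by 0.23 (SE 0.040, limma's adjusted p = 0.00467). Gins2 differed by about as much, 0.23, with a wider spread in filtered air (limma's adjusted p = 0.0556, and 0.0318 without ozone mouse 6). It passed in 1 of the 12 repeats with a single mouse removed (adjusted p up to 0.122). Gins4 differed by 0.094 and Gins3 by 0.069. Gins3 ranged from -0.067 over -0.0057 to 0.075 in filtered air and from -0.083 over 0.085 to 0.20 after ozone, so the lowest mouse of the series was an ozone mouse (SE 0.047, limma's adjusted p = 0.527). Whether the 4 subunits differ from each other in their response was not tested.

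**Figure D3:**
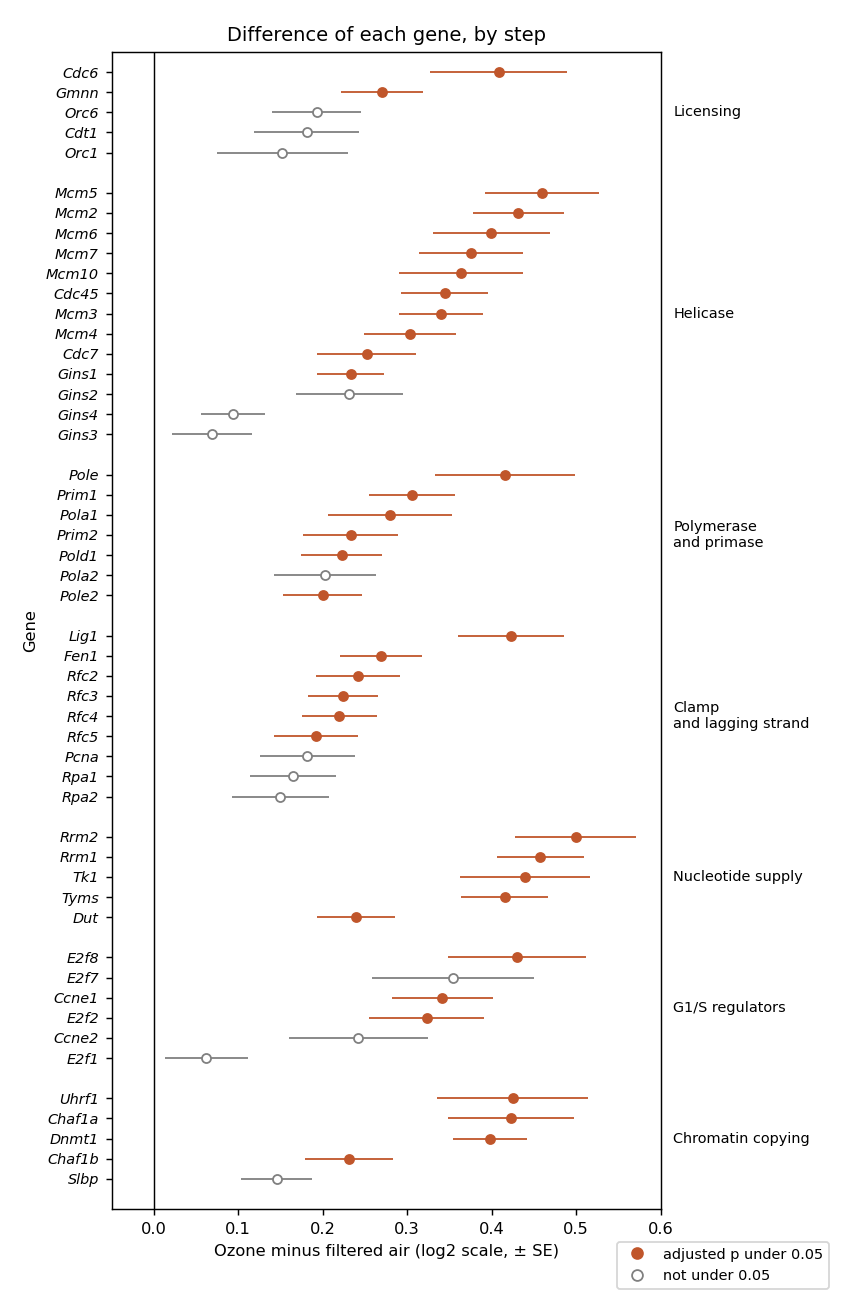
Ozone minus filtered air for each of the 50 genes (x axis, log2 scale, bars are the SE of the limma fit with 6 mice per group), by step and size. All points lie above 0, and the 36 filled points have an adjusted p under 0.05.

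Among polymerases and primase, 6 of 7 genes rose, and the median difference was 0.23. Prim1, the catalytic subunit of primase that lays the RNA primer, lay at -0.10, -0.019 and 0.12 in filtered air and at 0.20, 0.29 and 0.42 after ozone, without overlap. It rose by 0.31 (SE 0.051, limma's adjusted p = 0.00422). Pole, the catalytic subunit of the leading-strand polymerase epsilon, rose by 0.42 (SE 0.083, limma's adjusted p = 0.0112). Filtered-air mouse 6 lay at 0.38 in Pole, and the other filtered-air mice at 0.012 or below. Pold1, the catalytic subunit of polymerase delta, rose by 0.22 with separate groups.

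Pole2, Prim2 and Pola1 passed by less. They rose by 0.20, 0.23 and 0.28, with limma's adjusted p of 0.0269, 0.0309 and 0.0468, and with a single mouse removed they missed the threshold in 7, 8 and 9 of 12 repeats, with adjusted p-values up to 0.0684, 0.0749 and 0.106. Pola2, the second subunit of the polymerase that extends primers, ranged from -0.17 over 0.030 to 0.16 in filtered air and from 0.074 over 0.22 to 0.31 after ozone. The groups overlapped, and the difference was 0.20 (SE 0.060, limma's adjusted p = 0.0783, and 0.0376 without filtered-air mouse 6). Pola2 passed in 1 of the 12 repeats with a single mouse removed (adjusted p up to 0.172).

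For the sliding clamp and the lagging strand, 6 of 9 genes rose, and the median difference was 0.22. Lig1, the ligase that joins Okazaki fragments, lay at -0.20, 0.043 and 0.20 in filtered air and at 0.34, 0.42 and 0.54 after ozone. The groups did not overlap, and Lig1 rose by 0.42 (SE 0.063, limma's adjusted p = 0.00209). Fen1, the nuclease that trims the flaps of those fragments, rose by 0.27, also without overlap.

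The small subunits of the clamp loader rose by similar amounts, 0.24 for Rfc2, 0.22 for Rfc3, 0.22 for Rfc4 and 0.19 for Rfc5. The call of Rfc5 was lost in 8 of the 12 fits without 1 mouse (limma's adjusted p = 0.0435 with all mice, and up to 0.105). Pcna itself, the clamp, differed by 0.18 (SE 0.056) and did not pass (limma's adjusted p = 0.0927). It passed in 1 of the 12 fits without 1 mouse, the fit without ozone mouse 6 (adjusted p = 0.0318, and up to 0.191 over the 12). That mouse lay at 0.012 and was the lowest of its group. Rpa1 and Rpa2 encode subunits of the protein that coats single-stranded DNA. Rpa1 differed by 0.16 (limma's adjusted p = 0.0939, and 0.0245 without ozone mouse 6). It also passed in only 1 of the 12 fits without 1 mouse (adjusted p up to 0.185). Rpa2 ranged from -0.18 over 0.041 to 0.12 in filtered air and from 0.042 over 0.12 to 0.28 after ozone, with 3 ozone mice above every filtered-air mouse, and differed by 0.15 (SE 0.058, limma's adjusted p = 0.189).

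In nucleotide supply, all 5 genes rose without overlap of the groups, and the median difference was 0.44. Rrm1, the large subunit of ribonucleotide reductase, lay at -0.16, 0.0019 and 0.18 in filtered air and at 0.39, 0.46 and 0.53 after ozone. It rose by 0.46 (SE 0.052, limma's adjusted p = 0.000402). Rrm2, the small subunit of the same enzyme, rose by 0.50, which is the largest difference among the 50. Thymidine kinase (Tk1), which salvages thymidine, rose by 0.44, and thymidylate synthase (Tyms), which makes dTMP anew, rose by 0.42. Dut, which removes dUTP and feeds the same pathway, had the largest p-value of the step. It lay at -0.085, -0.0029 and 0.14 in filtered air and at 0.16, 0.26 and 0.31 after ozone, and rose by 0.24 (SE 0.046, limma's adjusted p = 0.00946). All 5 kept their calls in each of the 12 fits without 1 mouse.

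Among the regulators of G1/S, 3 of 6 genes rose, and the median difference was 0.33. Cyclin E1 (Ccne1), which activates Cdk2 at S phase entry, lay at -0.14, 0.030 and 0.14 in filtered air and at 0.21, 0.33 and 0.51 after ozone. It rose by 0.34 without overlap (SE 0.060, limma's adjusted p = 0.00546). Cyclin E2 (Ccne2) differed by 0.24 with overlapping groups (SE 0.082, limma's adjusted p = 0.13, and 0.0317 without filtered-air mouse 6). It passed in 1 of the 12 fits without 1 mouse (adjusted p up to 0.246).

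The E2F genes differed in their calls. The activator E2f2 rose by 0.32 (SE 0.068, limma's adjusted p = 0.0144). E2f8, an atypical repressor that is itself an E2F target, rose by 0.43 without overlap (SE 0.082, limma's adjusted p = 0.00866). Its relative E2f7 differed by 0.35 and fell short (SE 0.096, limma's adjusted p = 0.0529); in filtered air it ranged from -0.41 in mouse 4 to 0.23. E2f7 passed in 3 of the 12 fits without 1 mouse, those without filtered-air mouse 2, 4 or 6 (adjusted p from 0.0345 to 0.125 over the 12). E2f1, the founding activator, ranged from -0.15 over 0.030 to 0.098 in filtered air and from -0.039 over 0.090 to 0.13 after ozone. It differed by 0.062 (SE 0.049, limma's adjusted p = 0.605), the smallest difference among the 50.

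Genes that copy chromatin beside the DNA rose in 4 of 5 cases, with a median difference of 0.40. Dnmt1, the maintenance DNA methyltransferase, had the smallest p-value of the 50. It lay at -0.066, -0.024 and 0.16 in filtered air and at 0.31, 0.42 and 0.44 after ozone, and rose by 0.40 (SE 0.044, limma's adjusted p = 0.000380). Uhrf1, which guides Dnmt1 to new DNA, rose by 0.42. Chaf1a and Chaf1b, subunits of the assembly factor that deposits histones behind the fork, rose by 0.42 and 0.23. Chaf1b lost its call without ozone mouse 2 or ozone mouse 5 (limma's adjusted p = 0.0222 with all mice, and up to 0.0584). Slbp, which binds the end of histone mRNAs, ranged from -0.089 over 0.0024 to 0.058 in filtered air and from 0.010 over 0.16 to 0.22 after ozone, and differed by 0.15 (SE 0.042, limma's adjusted p = 0.0714, and 0.0202 without ozone mouse 6). Slbp passed in 1 of the 12 fits without 1 mouse (adjusted p up to 0.153).

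The mice of a group kept a similar order over many members. In filtered air, mouse 6 was the highest of its group in 30 of 50 genes, mouse 4 the lowest in 26 and mouse 5 the lowest in 20. After ozone, mouse 2 was the highest in 21 genes and mouse 5 in 13, and mouse 6 was the lowest in 20 and mouse 4 in 14. The mean over the 50 genes was 0.29 ± 0.060 (SD, n = 6) after ozone, between 0.22 and 0.36, and 0 ± 0.094 (SD, n = 6) in filtered air, between -0.13 and 0.14. The SD of a gene was larger in filtered air in 35 of 50 genes, with a median of 0.11 against 0.092 after ozone. Since the genes share libraries, these counts describe the 12 mice. Of the steps, only the licensing mean overlapped between the groups, with filtered-air mouse 6 at 0.17 and the lowest ozone mouse at 0.15.

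**Figure D4:**
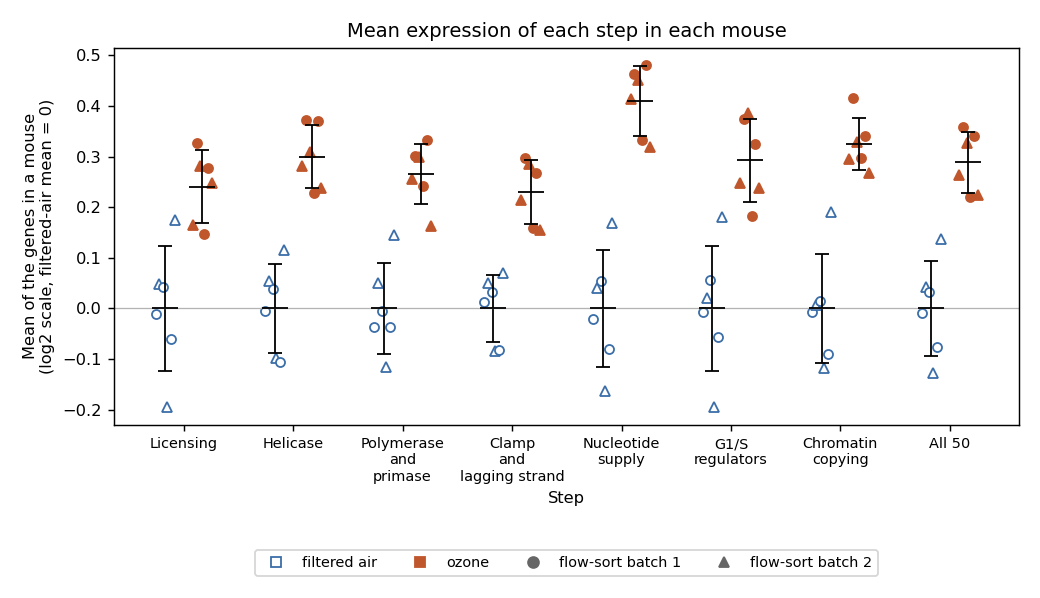
Mean of the genes of each step, and of all 50, in each mouse (y axis, log2 scale, filtered-air mean 0), with bars for mean and SD over 6 mice and marker shape for the flow-sort batch. Ozone mice lie above filtered-air mice in every step except licensing, where a filtered-air mouse at 0.17 overlaps ozone mice at 0.15 and 0.16.

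The direction was the same in both flow-sort batches. All 50 genes had a higher ozone mean in batch 1 and in batch 2, with median differences of 0.31 and 0.24, where 48.9% and 48.4% of all genes were higher. In limma's interaction test 0 members had an unadjusted p under 0.05, where 2.6% of all genes did, a share too near 0 of 50 to read anything from. At the same cutoff, dropping filtered-air mouse 4 raised the count to 5 members, with 519 genes passing among all 19633 tested. Dropping ozone mouse 4 raised it to 2 members, with 445 genes passing. Whether the members exceed this background was not tested. By adjusted p, 0 of all genes passed the interaction test at 0.05. When each batch was fitted by itself, on 3 mice per group, 11 members passed in batch 1, where 0.458% of all genes did (90 genes). In batch 2 limma called 0 of all genes by adjusted p, so its count of 0 members says nothing about them. At an unadjusted p under 0.05 in limma, 46 members were higher in batch 1 and 33 in batch 2, beside 5.87% and 4.5% of all genes (11% and 9.17% in either direction).

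Markers of other cells were set beside these values. Of 76 markers in 13 lists of other lung and blood cells, 69 could be tested, 0 rose and 1 fell, Epcam by 0.55. The mean of the 76 ran from -0.15 to 0.23 in filtered air and from -0.11 to 0.073 after ozone. Camp and Epx, markers of neutrophils and eosinophils, were at the minimum in all mice, and Ly6g, Ngp, Ccr3 and Prg2 carried reads in fewer than 6 mice. The other 5 neutrophil markers, such as S100a8 and S100a9, and the eosinophil marker Il5ra carried reads in all 12 mice. So did most other markers, with 68 of the 76 in total. Filtered-air mouse 4, the lowest of its group in 26 members, had the highest mean in 9 of the 13 lists and the lowest RNA integrity number. Its list means exceeded the group median in all 13. This was also seen in other mice that were often the lowest in members, filtered-air mouse 5 (lowest in 20) in 11 lists, ozone mouse 4 (lowest in 14) in 13 and ozone mouse 6 (lowest in 20) in 10, whereas ozone mouse 1 (lowest in 12) exceeded it in 4. The part of these markers in the low member values was not tested. Without filtered-air mouse 4, 33 members were called, where 3.79% of all genes were, and the median difference was 0.25. Without filtered-air mouse 6, the highest of its group in most members, 38 were called, where 3.80% of all genes were, and the median was 0.30.

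Other replication genes were listed by role beside the members. Of 60 such genes, 14 rose and 0 fell, where 2.41% of all genes rose and 1.84% fell, and the median difference was 0.11. Between 8 and 17 of them were called when 1 mouse was left out, where 2.74% to 3.83% of all genes were, 8 without filtered-air mouse 1 or ozone mouse 2, 3 or 5, and 9 without filtered-air mouse 3, 4 or 5. After quantile normalization 1 of the 60 was called, near the 0.871% of all genes called there. The shares of the 60 and the 50 were not tested against each other.

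In origin firing and the fork, 6 of 13 rose. Claspin (Clspn), which links the fork to the checkpoint kinase, had the smallest p-value of this role and rose by 0.51 (SE 0.092, limma's adjusted p = 0.00645). Ticrr, which brings Cdc45 to the ring, rose by 0.46, and Dbf4, the activating partner of Cdc7, by 0.19. Donson had the largest p-value, with a difference of 0.0086. Mcm8 and Mcm9, relatives of the ring subunits that act in repair, differed by 0.20 (limma's adjusted p = 0.0703) and -0.028 (adjusted p = 0.789).

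The remaining origin recognition subunits did not pass, with 0 of 5 genes called in that role. The smallest p-value belonged to Mcmbp, a binding partner of the ring, with a difference of 0.094, and the largest to Orc3, with 0.019. For polymerases, clamp and RNA removal, 2 of 15 rose. Pold3, an accessory subunit of polymerase delta, rose by 0.28 without overlap (SE 0.044, limma's adjusted p = 0.00342), while Pole4 differed by -0.0063.

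Of other nucleotide genes, 2 of 9 rose. Rrm2b, the p53-inducible small subunit of ribonucleotide reductase, differed by -0.022 (SE 0.044, limma's adjusted p = 0.865), and its difference from the 0.50 of Rrm2 was not tested. Of other regulators, 2 of 12 rose, with the smallest p-value in Tfdp1, the DNA-binding partner of E2Fs, at 0.18 (SE 0.047, limma's adjusted p = 0.0415). E2f3, E2f4, E2f5 and E2f6 lay between -0.027 and 0.073 and did not pass, and E2f5 had the largest p-value of the role at -0.017. Of other chromatin genes, 2 of 6 rose. Asf1b, a histone chaperone, rose by 0.48 (SE 0.098, limma's adjusted p = 0.0124), and the largest p-value was that of Usp7, with a difference of 0.0019.

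**Figure D5:**
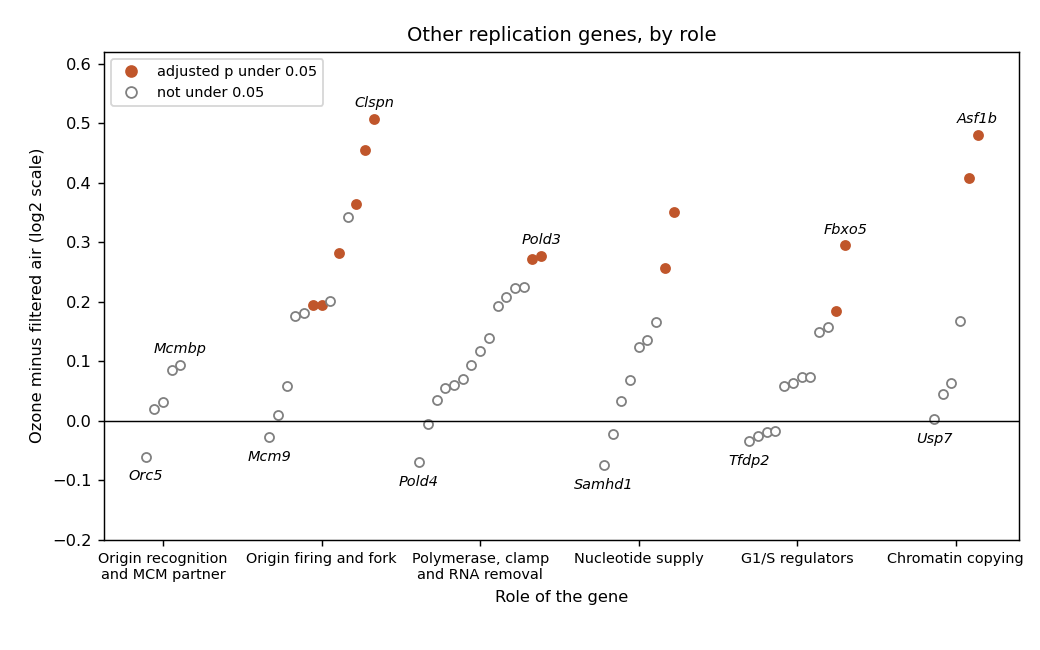
Ozone minus filtered air (y axis, log2 scale) for 60 replication genes outside the 50, by role (x axis), with the highest and the lowest gene of a role named, except the highest of nucleotide supply. The 14 filled points have an adjusted p under 0.05, and none of them lies in the origin recognition group.

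Proliferation markers of later phases moved with the members. All 6 listed genes rose, between 0.46 (Birc5) and 0.68 (Mki67). Mki67, which marks cycling cells, lay at -0.40, -0.019 and 0.42 in filtered air and at 0.54, 0.68 and 0.81 after ozone (SE 0.11, limma's adjusted p = 0.00297). These genes belong to the same cycle and the same libraries, and a list sharing some of them had been seen to rise before.

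The promoter words and the differences were read side by side. Of the 17 members with an E2F word, 13 rose, with a median difference of 0.34 (0.069 to 0.46). Of the 24 listed members without one, 17 rose, with a median of 0.26 (0.062 to 0.50). Whether members with and without a word differ was not tested. The 5 nucleotide genes rose without a word in the window searched, and the 4 members that hold a word and did not pass were Orc1, Cdt1, Gins3 and E2f7.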

How the data were processed

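RNA of flow-sorted alveolar macrophages was measured by sequencing in 12 mice. As the table is titled, the authors stabilized the variance and corrected for batch, and the deposited values are on a log2 scale. The submitters' processing notes list cutadapt, STAR 2.7.7a, Salmon 1.5.2, DESeq2 1.26.0, R 3.6.0, limma 3.42.2 and mm10, without roles. The annotation, and how reads of related genes were shared, are not given in the sources used here. All 12 columns matched a sample title. The filtered-air mean was 0 in every gene.

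Of 25444 genes that were not constant, 19633 were kept, in which at least 6 mice lay above the minimum that mice of a batch without reads share (equal within 1e-08). A lone mouse without reads is not recognised by this rule. Ozone was compared with filtered air with limma 3.58.1 in R 4.3.3, without a variance trend, with flow-sort batch as covariate, two-sided, with p-values adjusted by the Benjamini-Hochberg method over all genes kept (threshold 0.05). The batch term accounts for the degree of freedom that the correction had used. The fit was tested on simulated data.

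Full values are given in each step for the member with the smallest and the largest p-value, and differences for all. Members, lists, filter and alternatives were chosen with earlier results of these data known. The comparison of promoters with tested genes only was added after the data had been seen. Promoters were credited to RefSeq (GRCm38.p6), and motif shares are descriptions with no test. Values of some listed genes are not reported here. The alternatives cover the filter, the variance prior, covariates, normalization, batches alone, a replicate block and fits without 1 mouse.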

Additional observations from a re-analysis of the deposited data

Results flagged for a closer look

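In 4 of 100 pairs of member and group the extreme mouse stood apart by Dixon's ratio, its gap to the nearest mouse divided by the range, where chance gives about 5. Filtered-air mouse 6 was the highest in Pole, at 0.38 with the next mouse at 0.012 (ratio 0.759), and in Dnmt1, at 0.16 with the next at 0.0078 (ratio 0.676). Filtered-air mouse 5 was the highest in Rfc5, at 0.092 (ratio 0.713). Ozone mouse 6 was the lowest in Pola1, at 0.040 with the next at 0.25 (ratio 0.689).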

How the results depend on the processing

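All 50 members had a higher mean after ozone under each alternative run, and the step medians moved by less than the spread of the filtered-air mice. The 36 called members became 34 to 40 under the filters, variance priors, covariates and median centring, where 3.11% to 5.87% of all genes were called. Quantile normalization, which gives all mice 1 distribution, gave 11 called members, 1 of the other 60 replication genes and 171 genes in all, with a member median of 0.22. Batch 1 alone gave 11 members, 2 others and 90 genes, and batch 2 alone gave 0, 0 and 0; both use fewer mice. Without 1 mouse each, members called ranged from 30 (without ozone mouse 5) to 38, other replication genes from 8 to 17, and all genes from 538 (without filtered-air mouse 1) to 751. Of the 36 members, 30 kept their call in each of these 12 fits. Of 1150 results for single members, 996 kept their side of the threshold, 134 lost a call and 20 gained one, and 0 reversed. Against tested genes only, the background share of E2F words was 4.29%. Same-numbered mice are different animals, and the correlation of their deviations ranged from -0.0026 to 0.28, over 0.1 in 4 of 6 pairs, while 3 of 6 ozone mice correlated best with their own number. With the replicate block 37 members, 16 other replication genes and 853 genes were called, and 34 of the 36 members kept their call. The interaction between ozone and batch gave 0 genes by adjusted p in each fit that held it, with 405 to 746 genes at an unadjusted p under 0.05. The total of reads per library is unknown, so the precision of a gene is known only through the spread between mice.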
